A study of Mus musculus with 3 samples.

Results

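The probes described here measure RNA from stretches of the mouse genome that the array names only by position, as a chromosome, a first and a last base (mouse build mm9) and a strand letter, F or R. They were chosen by the form of that name, on the autosomes, whatever their values. They number 15604 of the 55681 non-control probes on the array (28.0%) and carry 4429 interval and strand names. Those names cover 3387 intervals, of which 1189 have only F probes, 1156 only R probes and 1042 both. Array designs of this kind include such intervals as candidate long intergenic noncoding RNAs. The files name no gene and give no probe sequence for them, and do not say what F and R stand for. Neither the sequences nor the neighbouring genes were analysed here.

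Long intergenic noncoding RNAs are transcribed between protein-coding genes, are often spliced and polyadenylated, and show tissue-restricted expression at lower levels than messenger RNAs. In embryos, members of this class act in the nucleus as scaffolds for chromatin regulators, or in cis on neighbouring genes. Brpf1 encodes a scaffold of histone acetyltransferase complexes of the KAT6 and KAT7 family, with reader domains that bind modified histones. The comparison asks which RNAs differ between embryos with and without it, and these probes cover the stretches that the array names only by position.

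Each of 3 two-colour arrays set RNA of a wild-type mouse embryo, labelled with Cy3 (green), against RNA of a Brpf1-deficient embryo, labelled with Cy5 (red), both at stage E8.75, the time of early organ formation, with no treatment named. The labels number the arrays as pairs 1 to 3. They give no allele, strain, sex or number of embryos behind a sample, so p-values measure the spread between these 3 pairs. The dyes run the same way on every array, so dye and genotype cannot be told apart. Values of single probes are given as the log2 of Cy5 over Cy3 after loess normalization within each array, and 0 stands for equal signal. Errors marked SE are limma's moderated standard errors, which draw the spread of each probe between pairs towards that of all probes tested. They can be smaller or larger than the plain standard error of the 3 values.

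The only Brpf1 probe was brighter in Cy5, the channel labelled Brpf1-deficient, with log2 ratios of 2.01, 1.43 and 1.06 in pairs 1, 2 and 3 (mean 1.50 ± 0.19, SE, n = 3 pairs; limma adjusted p = 0.0596). This goes against the label, and where the probe lies relative to the disrupted part of the gene was not analysed here. Every direction below is therefore that of the channel as labelled and is assigned to no genotype. All 8 embryo marker genes checked, which are embryonic globins and regulators of neural, mesodermal, endodermal and cardiac cells, were well above background in both channels of all arrays. Over all non-control probes the median spot signal was 134 to 144.5 in Cy3 and 220 to 243 in Cy5. No spot was saturated.

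Interval probes were detected less often than probes of RefSeq transcripts. A probe counts here as well above background when the scanner software marked it so in either channel. That held for 32.1%, 40.6% and 37.1% of the interval probes on the arrays of pairs 1, 2 and 3 (36.6% ± 4.25, SD, n = 3 arrays). By the software's less strict flag, for signal positive and significant over background, the share was 61.6%, 68.7% and 67.9%. Probes of RefSeq messenger RNAs (accessions starting NM) reached 73.0% to 76.4%. Probes of RefSeq noncoding RNAs (accessions starting NR) reached 41.1% to 47.2%. The interval probes were below both on every array. Intervals minus messenger RNAs gave -38.2 ± 2.54 percentage points, and intervals minus RefSeq noncoding RNAs -7.76 ± 1.18 (SD, n = 3 arrays). An exact sign-flip permutation test over 3 pairs cannot give a two-sided p under 0.25, which is what it gave for both.

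Detection repeated between arrays for most probes. Of the interval probes, 8758 (56.1%) were not well above background on any array, and 4710 (30.2%) were so on all 3. Both channels were well above background on all arrays for 3517 probes (22.5%). Counted by interval and strand, 2266 of 4429 names (51.2%) had at least 1 probe well above background on all arrays, and 799 had every probe so. Among the 1339 names with 5 or more probes, 482 had no probe well above background on all arrays and 106 had every probe. A name carries between 1 and 10 probes (median 3), each spotted once.

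The channels differed in how many interval probes they detected. Cy3 marked 31.6%, 40.3% and 36.8% of them as well above background, and Cy5 26.9%, 26.6% and 28.7%. The gap was 8.83 ± 4.54 percentage points (SD, n = 3 arrays) and Cy3 was ahead on each array. Among messenger RNA probes the gap was 4.87 ± 2.89 points in the same direction. On all arrays 280 interval probes were well above background in Cy3 and on none in Cy5, and 0 the other way round. The same counts over all probes of the array are not given here, so nothing particular to the intervals is read from these. The local background of the spots had a median of 52, 54 and 58 in Cy3 and of 134.5, 161.5 and 137 in Cy5. Its part in the result was not tested.

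Detection varied with the length written in the interval's name, which runs from 62 bases to 7128487 bases with a median of 7451 (quartiles 794 and 21818). It was highest for intervals of 1 to 5 kb, at 38.6%, 47.1% and 44.3% on the 3 arrays. Intervals under 1 kb had 29.0%, 37.5% and 33.3%. From 5 kb upwards the mean share was lower in each longer class, from 38.3% ± 4.79 at 5 to 10 kb to 33.8% ± 4.21 above 50 kb (SD, n = 3 arrays). The gap between 1 to 5 kb and under 1 kb was 9.66, 9.62 and 10.97 points, larger than its spread between arrays (10.1 ± 0.77, SD). That between 1 to 5 kb and above 50 kb was 9.50 ± 0.47 points. The size of such gaps rests on the class edges: over 5 classes of equal size the range was 4.18 points. The arrays differed from each other by more than most neighbouring classes did, with pair 1 lowest and pair 2 highest in every class. Length here is that of the named stretch of genome and not of a transcript.

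**Figure D1:**
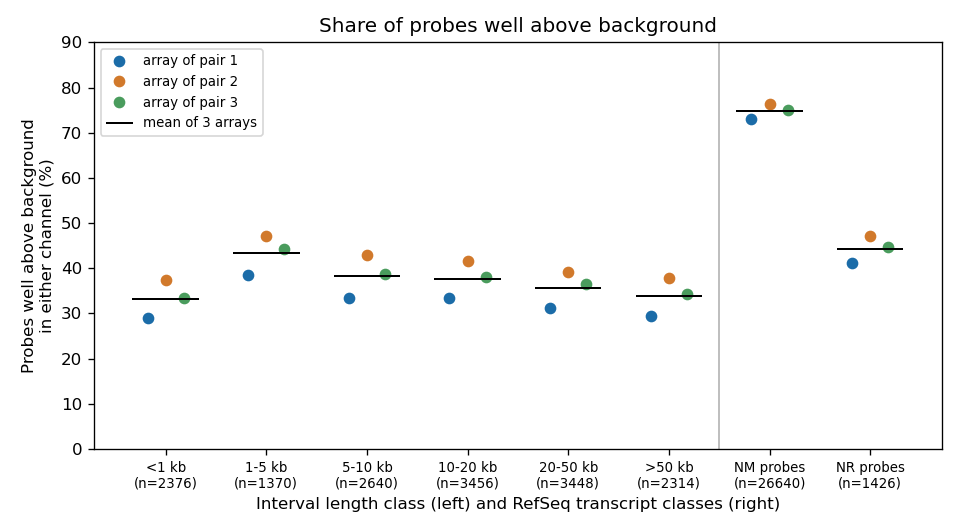
Share of probes well above background in either channel (y axis, %) by interval length class, and for RefSeq messenger (NM) and noncoding (NR) probes; each point is 1 array and each line the mean of 3. The class of 1 to 5 kb sits highest among the intervals on each array (38.6% to 47.1%), and all classes lie far under the messenger RNA probes (73.0% to 76.4%).

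The intervals at the extremes of length were as follows. The longest named interval, chr7:39351858-46480344 (7128487 bases, strand R), has 1 probe, whose signal reached that level on no array. The next, chr5:99726262-100264512 (538251 bases, R), has 3 probes, and 0 of them were well above background on an array. Under the naming rule the longest intervals with a usable probe were chr3:34003359-34537330 F (533972 bases), chr13:28477490-28985604 F (508115 bases) and chr13:28551902-28975446 R (423545 bases). Their brightest probes had log2 ratios of -0.07 ± 0.12, -0.09 ± 0.10 and -0.19 ± 0.15 (SE, n = 3 pairs), none past the threshold in limma (adjusted p = 0.800, 0.665 and 0.545). The shortest usable intervals, of 74, 87 and 90 bases on chromosomes 15, 1 and 18, had 0.11 ± 0.09, -0.07 ± 0.09 and 0.28 ± 0.09 (adjusted p = 0.549, 0.693 and 0.262). The Cy5 signal of the 87-base interval never rose well above background.

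Intervals also overlap. On 1 strand, 2034 of the names fall into 831 runs of overlapping names, so that neighbouring names can report the same RNA. The largest run holds 12 names on strand R of chromosome 13 (chr13:28477490-28985604) with 34 probes. Of these, 17 passed the filter described below, with mean log2 ratios from -0.40 to 0.40.

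By chromosome the share of interval probes well above background ran from 29.9% ± 3.74 on chromosome 9 to 42.0% ± 5.17 on chromosome 17 (SD, n = 3 arrays). Chromosome 17 had 36.4%, 46.5% and 43.3% on the 3 arrays, and chromosome 9 had 26.1%, 33.6% and 30.2%. The gap was 10.3, 12.9 and 13.1 points (12.1 ± 1.58, SD), larger than its spread between arrays, but this pair of chromosomes was picked as the extremes and carries no test. Chromosomes 8, 19 and 5 followed chromosome 17 with means of 41.0%, 40.9% and 40.7%, which differ from each other by less than the spread between arrays. Chromosome 10 was next to the bottom with 31.1%. The number of probes per chromosome ranged from 322 to 1199, and the chromosome with fewest, 19, was among the highest.

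The strands were not detected alike. R probes were well above background more often than F probes on each array (34.7%, 43.2% and 39.4% against 29.6%, 38.0% and 34.9%), F minus R being -4.92 ± 0.38 points (SD; exact sign-flip permutation p = 0.25, the smallest possible). Among the 1042 intervals with probes to both strands, 210 had only F probes well above background on all arrays, 273 only R probes, 360 had both and 199 neither. In 300 of them (28.8%) the mean log2 intensity of the strands differed by more than 1 in the same direction on all 3 arrays, with F brighter in 131 and R in 169. F and R probes are different sequences that bind their targets differently, so such a gap is a description of spots and not a ratio of RNA amounts.

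The 4 intervals with the largest gap each had 1 strand among the brightest spots, at a mean log2 intensity of 16.3 to 17.3, and the other at no more than 7.72. For chr4:141527564-141547339 (19776 bases) F minus R was 9.62 ± 0.22 log2 units of intensity (SD, n = 3 arrays). In chr11:22681800-22707775 (25976 bases), chr2:167085700-167117795 (32096 bases) and chr19:56820850-56837925 (17076 bases) R was the brighter strand, and F minus R was -9.60 ± 0.12, -9.36 ± 0.23 and -9.34 ± 0.14. In 3 of these 4 the bright strand had 1 probe. The brightest probe of each had log2 ratios of Cy5 over Cy3 of 0.55 ± 0.15 (chromosome 4), 1.30 ± 0.10 (chromosome 11), 0.08 ± 0.10 (chromosome 2) and 0.16 ± 0.10 (chromosome 19; SE, n = 3 pairs).

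For the comparison of the channels, probes were kept if 2 or more of the 3 arrays had them well above background in the same channel. That left 5536 interval probes (35.5%) with 2619 names. A probe of an interval that only 1 channel detects passes this filter as well. After loess the kept intervals as a whole showed no shift between the channels larger than the spread between pairs. Pairs 1, 2 and 3 had median log2 ratios of 0.00, 0.05 and -0.02 (mean 0.01 ± 0.04, SD; exact sign-flip permutation p = 0.75). Loess sets the ratios at each intensity near 0 over all non-control spots, interval probes among them. A shift shared by the probes of an intensity is largely removed by it, so these medians cannot show one. Kept messenger RNA probes had medians of -0.02, -0.07 and -0.01. From the 5th to the 95th percentile the mean ratios of the interval probes ran from -0.33 to 0.31. Only 89 of 5536 lay beyond 0.5 in size, 37 higher in Cy5 and 52 lower, and 5 lay beyond 1.

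The pairs resembled each other weakly across the interval probes. The correlation over kept probes was 0.29 between pairs 1 and 2, 0.45 between pairs 1 and 3, and 0.03 between pairs 2 and 3. Probes share array, dye and overlapping targets, so these are descriptions. The same sign in all 3 pairs was seen for 2480 interval probes (44.8%), against 42.7% of all 31603 kept probes. Probes to the same interval and strand were closer to each other than to other intervals. Within the 1394 names with at least 2 kept probes the SD of the ratio between probes was 0.14, against 0.21 over all those probes. In 763 of these names (54.7%) every kept probe lay on the same side of 0.

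Median ratios were slightly higher in longer intervals. The median in intervals above 50 kb exceeded that under 1 kb by 0.07, 0.06 and 0.05 in pairs 1, 2 and 3 (mean 0.06 ± 0.01, SD; exact sign-flip permutation p = 0.25, the smallest that 3 pairs allow). It exceeded that at 1 to 5 kb by 0.08 ± 0.01. The mean difference between the longest and shortest class was 0.0127 without the filter on dim probes and 0.115 with the scanner software's processed signals. The class medians themselves moved from pair to pair by as much, for intervals above 50 kb from 0.03 in pair 1 to 0.09 in pair 2 and 0.00 in pair 3.

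By chromosome, the medians of the kept interval probes ran from -0.06 (chromosome 16, pair 1) to 0.11 (chromosome 4, pair 2) in single pairs. Averaged over pairs they ran from -0.04 on chromosome 16 to 0.04 on chromosomes 4 and 6. Chromosome 14 was the only one with a median above 0 in all pairs (0.03, 0.06 and 0.02), and chromosomes 16 (-0.06, -0.02 and -0.03) and 18 (-0.02, -0.01 and -0.02) were the only ones below 0 in all. In pair 2 the median was above 0 on 17 of the 19 autosomes and in pair 3 on 2, so that the pair moved the medians more than the chromosome did. Chromosome 4 exceeded chromosome 16 by 0.10, 0.14 and 0.01.

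**Figure D2:**
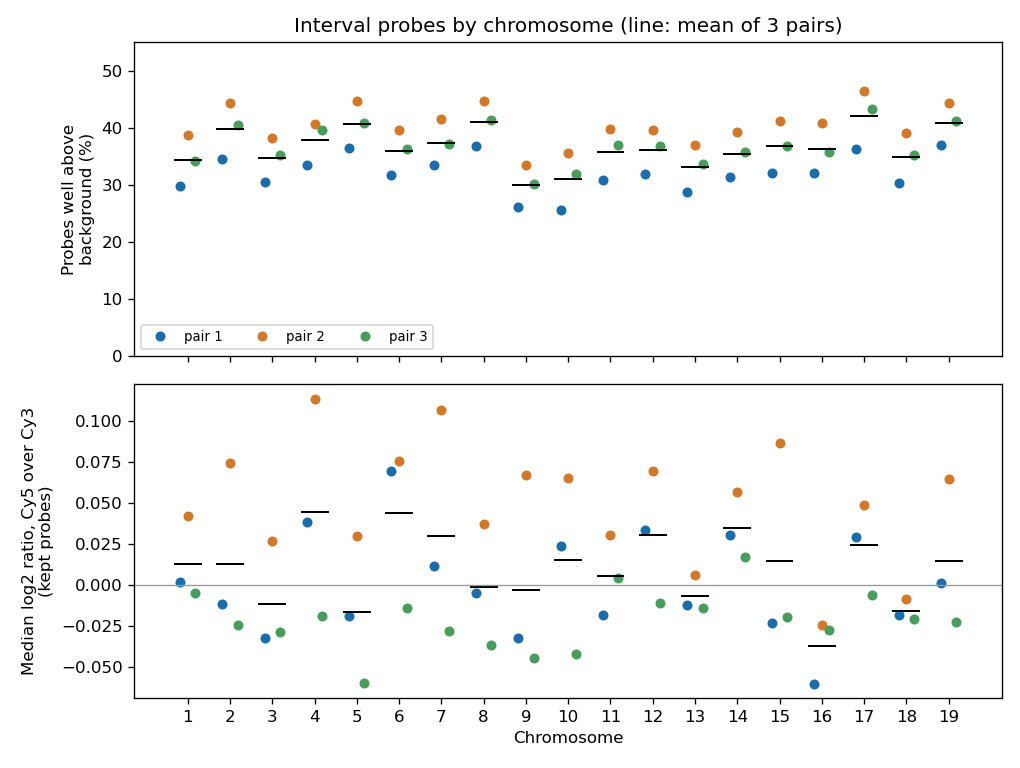
Interval probes on each of the 19 autosomes (x axis): above, the share well above background in either channel (%), and below, the median log2 ratio of Cy5 over Cy3 of the kept probes; points are the 3 pairs and lines their mean. Chromosome 17 is highest and chromosome 9 lowest in the mean share, while the medians of pair 2 lie above those of pair 3 on every chromosome.

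Single intervals were tested with limma over all 31603 kept probes, with Benjamini-Hochberg adjustment and a threshold of 0.05. Across the array 257 probes (0.813%) passed, 249 of them (0.788%) higher in Cy5 and 8 (0.0253%) lower. Of the 5536 interval probes 8 passed (0.145%), 5 higher and 3 lower. At an unadjusted p under 0.05 there were 862 interval probes (15.6%) against 16.2% of all kept probes. Very bright probes made up most of the array's calls. Of the 645 kept probes with a mean log2 intensity above 17, 240 (37.2%) passed, and of the other 30958, 17 did (0.0549%). Only 8 interval probes were that bright and 4 of them passed. Of the 5528 dimmer ones 4 passed. The calls depend on the settings. With a loess span of 0.02, or with any 1 of the 3 pairs left out, 0 interval probes passed in limma, and 0 probes of the whole array did. At an unadjusted p under 0.05 there were 861 interval probes with that span (15.6%, against 14.1% of all) and between 268 and 918 without a pair (4.84% to 16.6%, against 7.41% to 15.8% of all). With each array centred on its median in place of loess, 19 passed, 9 higher and 10 lower, against 2.19% of all kept probes. Without the filter 20 of 15604 passed, 12 higher and 8 lower, against 0.704%. With both channels required on all arrays 11 of 3517 passed, 5 higher and 6 lower, against 1.13%.

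**Figure D3:**
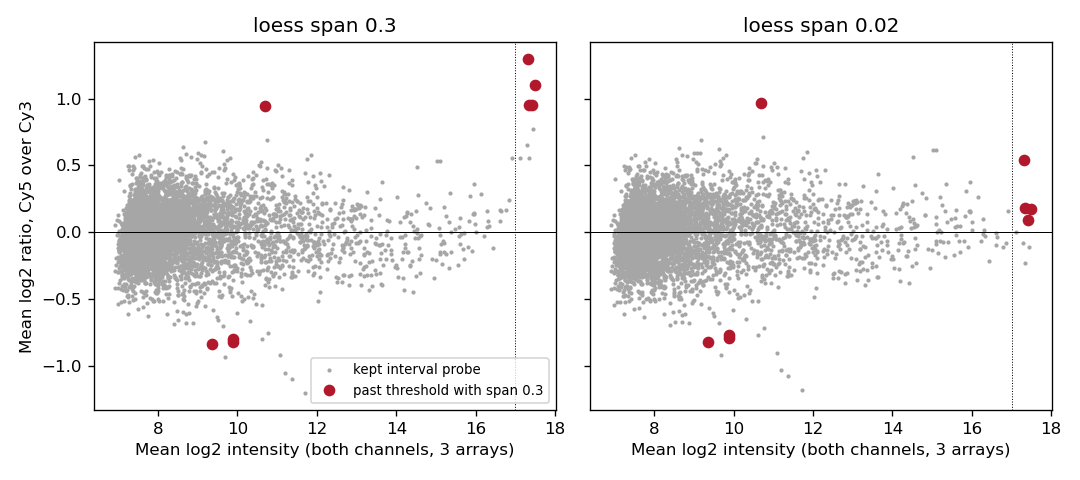
Mean log2 ratio of Cy5 over Cy3 (y axis) against mean log2 intensity (x axis) of the 5536 kept interval probes, with a loess span of 0.3 (left) and 0.02 (right); red points are the 8 probes past the threshold with a span of 0.3 and the dotted line marks an intensity of 17. The 4 bright red points fall to between 0.09 and 0.54 with the narrower span, and the 4 dimmer ones lie at 0.97, -0.77, -0.80 and -0.82 there.

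The largest increase in Cy5 was that of the only R probe of chr11:22681800-22707775. Its median spot signals were 51530, 86654 and 71225 in Cy3 and 408480, 363090 and 408640 in Cy5 before normalization. Its log2 ratios were 1.50, 1.15 and 1.24 in pairs 1, 2 and 3, higher in Cy5 in each (mean 1.30 ± 0.10, SE, n = 3 pairs; limma adjusted p = 0.0377). With a loess span of 0.02, which follows the intensity trend more closely, the ratio was 0.54 ± 0.09 (adjusted p = 0.318). With processed signals it was 0.84 (adjusted p = 0.266). The 2 F probes of the same interval had 0.07 and 0.09.

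The other bright interval was chr6:116123643-116124550 (908 bases, F), whose 3 probes all passed. Their ratios were 0.95, 0.95 and 1.10, and all 9 values from the 3 pairs lay between 0.81 and 1.19. With the narrower span the 3 probes had 0.09, 0.18 and 0.18, so their position above the other probes depended on that setting. The brightest of them had 0.58 with processed signals (adjusted p = 0.276) and 1.69 with median centring (adjusted p = 0.00510). Other bright intervals under the naming rule lay in the same direction without passing. chr17:48068261-48087905 F (19645 bases) had 0.77 ± 0.11, chr17:17481706-17482457 R (752 bases) had 0.55 ± 0.08, and chr7:108209996-108216032 R (6037 bases) had 0.65 ± 0.12 (SE, n = 3 pairs; limma adjusted p = 0.0821, 0.0892 and 0.151). With the narrower span these became -0.11, -0.23 and -0.08, on the other side of 0. With median centring they were 1.36, 1.12 and 1.21 and passed (adjusted p = 0.00961, 0.0100 and 0.0254). With processed signals they were 0.23, -0.05 and 0.22. Interval probes above an intensity of 17 had a median ratio of 0.86, and messenger RNA probes of that intensity had 0.83.

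A dimmer increase came from chr15:85412264-85549139 (136876 bases, F). One of its probes had spot signals of 1001, 1018 and 992 in Cy3 and of 3512, 2045 and 3054 in Cy5. Its ratios were 1.07, 0.79 and 0.96 (mean 0.94 ± 0.09, SE; limma adjusted p = 0.0427), and 0.97 with the narrower span. It did not pass with median centring (0.81, adjusted p = 0.0736). The other 4 kept F probes of that interval were also above 0, at 0.42, 0.17, 0.17 and 0.13, but clearly less so, and none passed. The mean of the 5 probes was 0.36 (limma over means of the kept probes of each transcript, adjusted p = 0.160). The 3 kept R probes lay between -0.22 and 0.00.

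Each of the 3 decreases lay in an interval and strand in which every kept probe was below 0. On strand F of chr17:38132217-38157667 (25451 bases) 6 of 8 probes were kept, with ratios of -0.84, -0.80, -0.76, -0.66, -0.63 and -0.50. The probe that passed had spot signals of 758, 745 and 679 in Cy3 and of 750, 577 and 593.5 in Cy5, and ratios of -0.79, -0.89 and -0.84 (mean -0.84 ± 0.08, SE; limma adjusted p = 0.0398). Averaged over the 6 probes the interval had -0.81, -0.52 and -0.76 in pairs 1, 2 and 3 (mean -0.70 ± 0.09; adjusted p = 0.0628 over transcript means). The 2 F probes left out by the filter had -0.20 and -0.47. On strand R of that interval 1 of 9 probes was kept, at 0.02.

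The others lie 213977 bases apart on chromosome 4. At chr4:146890596-146891297 (702 bases, F) all 3 probes were kept, with ratios of -0.82, -0.63 and -0.52. The first passed (spot signals of 947.5, 1224 and 965 in Cy3 and of 863, 856 and 830.5 in Cy5; -0.82 ± 0.08, SE; limma adjusted p = 0.0398). Averaged over probes the pairs had -0.66, -0.65 and -0.66, nearly the same value in each. The mean passed in the fit over transcript means (adjusted p = 0.0452), in which 0.827% of all transcripts did.

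At chr4:147105275-147171025 (65751 bases, R) all 4 probes were kept, with ratios of -0.80, -0.68, -0.66 and -0.60. The probe that passed (-0.80 ± 0.08, SE; limma adjusted p = 0.0427) had spot signals of 1015, 1083 and 967 in Cy3 and of 954, 789 and 820 in Cy5. The pair means were -0.71, -0.67 and -0.69 (mean -0.69 ± 0.07; adjusted p = 0.0430 over transcript means). None of the 5 F probes of this interval was kept. Within 1 Mb on either side, a stretch chosen after the values were seen, the other 10 kept interval probes had ratios from -0.13 to 0.19, and 0 of them had an unadjusted limma p under 0.05. Of the R names that overlap it, chr4:147108244-147183905 had -0.10, 0.07 and -0.35 in the pairs, and chr4:147156425-147183949, whose only probe was below the filter, had -0.30, -0.41 and -0.39. With the narrower span the 3 probes that passed had -0.82, -0.80 and -0.77, but an adjusted p of 0.318, and no probe of the array passed then.

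**Figure D4:**
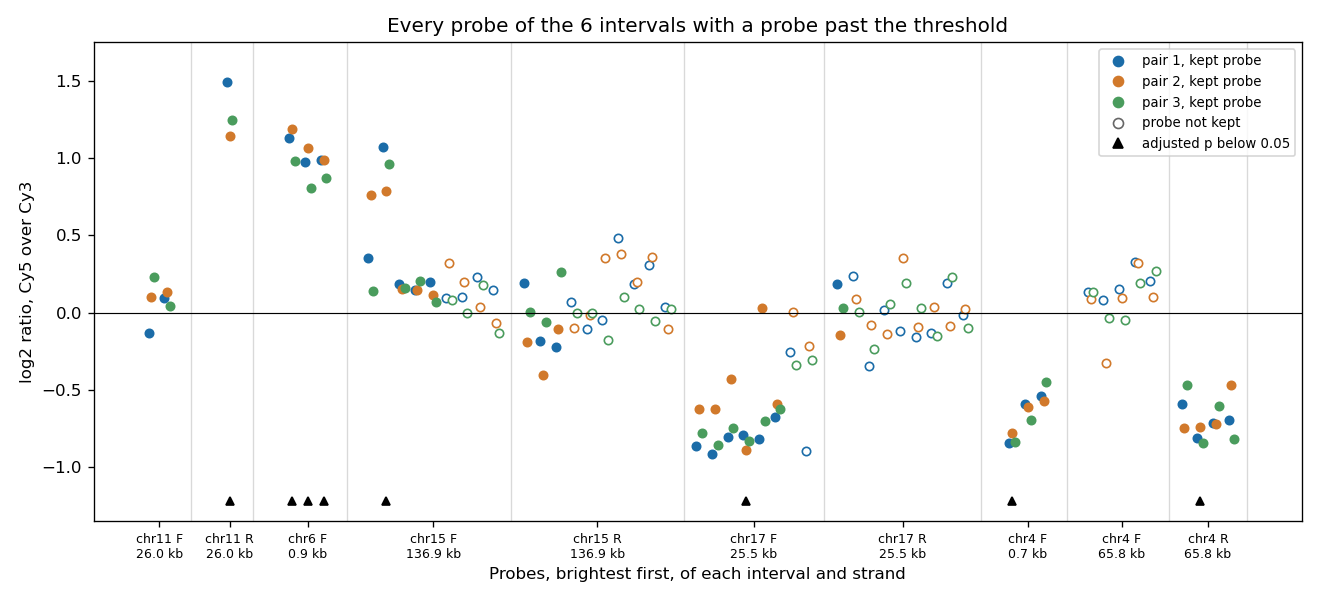
Log2 ratio of Cy5 over Cy3 (y axis) in the 3 pairs for every probe of the 6 intervals with a probe past the threshold, grouped by interval and strand and ordered by intensity; open points are probes below the background filter and triangles mark the 8 probes past it. All kept probes of the intervals on chromosome 17 F, chromosome 4 F and chromosome 4 R have means below 0, and the probes of the opposite strands scatter around 0.

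Intervals with several probes were also read together. Of the 827 names with at least 3 kept probes, 26 (3.14%) had every kept probe at an unadjusted limma p under 0.05 with the same sign, 9 higher and 17 lower. By the same rule 3.84% of all 1355 transcripts with at least 3 kept probes qualified, 1.99% higher and 1.85% lower. These 1355 include the 827 interval names, so the 2 shares are not independent. Besides the intervals above, the largest decreases were those of chr17:13008796-13023201 F (-0.61, -0.75 and -0.30 in pairs 1, 2 and 3), chr3:146645022-146646977 F (-0.43, -0.78 and -0.32) and chr2:48818825-48822612 F (-0.62, -0.20 and -0.70). After chromosome 6, the largest increases were chr2:153643200-153654975 R (0.43, 0.78 and 0.29), chr4:89032648-89133273 F (0.46, 0.74 and 0.18) and chr5:37051650-37110575 R (0.42, 0.56 and 0.21), the last with all 5 of its probes. None of these 6 passed in the fit over transcript means (adjusted p = 0.157 to 0.223). The R name chr5:36969767-37087176, which overlaps the last of them, had -0.49, 0.52 and -0.19 in the pairs (means of 3 kept probes). The rule and the names were chosen after their values were seen and serve as description.

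Under the naming rule, 1 further increase and 3 decreases are given that did not pass. The only R probe of chr13:23517278-23523756 (6479 bases) had 0.55, 0.60 and 0.58, close in all pairs (0.58 ± 0.08, SE; limma adjusted p = 0.0669). Its Cy3 signals were 102, 108.5 and 112, well above background in pairs 2 and 3 but not in pair 1. It passed when 1 probe per transcript was tested (adjusted p = 0.0486), and its ratio was 1.30 with processed signals (adjusted p = 0.266). The decreases were chr1:69555180-69555559 R (380 bases; -0.69 ± 0.11), chr15:58985008-58985429 F (422 bases; -0.53 ± 0.08) and chr2:72825297-72826470 F (1174 bases; -0.52 ± 0.08), with limma adjusted p of 0.0952, 0.0892 and 0.104. The first passed with median centring (-0.74, adjusted p = 0.0498), and the others had -1.09 and -1.34 with processed signals (adjusted p = 0.378 and 0.298). In the last, Cy5 never rose well above background, and Cy3 was brighter 1.43-fold. That value sets the Cy3 mean against the higher of the lowest detected signal and the probe's own Cy5 signal on each array. Here the probe's own signal was used, so it equals the mean ratio and is no separate bound. It is open to dye bias.

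Some of the largest mean ratios came mostly from 1 pair. Strand R of chr2:174088550-174109425 (20876 bases) had the lowest mean ratio of any kept interval probe, -1.21 ± 0.67 (SE; limma adjusted p = 0.424). That probe had -3.27 in pair 1, 0.08 in pair 2 and -0.43 in pair 3. Its Cy3 signals were 3921, 5513 and 3497, and its Cy5 signals 677, 6545 and 4184, so the Cy5 channel of pair 1 stood apart. Of the other 4 kept R probes, 3 repeated this, with -2.67 to -2.91 in pair 1, and the dimmest had 0.03. Most kept probes on strand R of chr5:33174092-33200792 (26701 bases) were also lowest in pair 1, but pairs 2 and 3 differed as well. Of its 7 kept probes 5 had -1.49 to -2.38 in pair 1, with Cy5 signals from 166 to 316 there and from 708 to 1283 in pair 2. Those 5 had ratios of 0.08 to 0.70 in pair 2 and -0.44 to -0.65 in pair 3. An R name within that interval, chr5:33186508-33196882, had means of -0.46, 0.48 and -0.44 in pairs 1, 2 and 3. These intervals were chosen after their values were seen.

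A wider search found this in 46 of the 827 names with at least 3 kept probes (5.56%): every kept probe set 1 pair apart from each of the others by more than 0.5 on 1 side. Of all 1355 such transcripts, which include these 827 names, 54 did so (3.99%). The 46 interval names make up most of these 54, so the 2 shares are not independent. The split by pair over all transcripts is not given here. In 40 of the 46 it was pair 2 that lay above, in 1 it was pair 2 below, in 3 it was pair 1 below, and in 2 it was pair 3 below. The search was made after the values were seen and carries no test.

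The highest of these was chr4:126710640-126721240 F (10601 bases), with all 5 kept probes between 1.37 and 1.62 in pair 2 and means of 0.18 and -0.53 in pairs 1 and 3. Its brightest probe had Cy5 signals of 2610, 5264 and 2010 beside Cy3 signals of 1536, 1803 and 2053. The 3 probes of chr19:5801802-5802597 R (796 bases) had means of -0.81, 1.46 and -0.31, with Cy5 signals of the brightest probe of 34063, 99550 and 73791. The 3 probes of chr11:96173788-96174352 F (565 bases) had -0.15, 1.19 and -0.25. For chr9:20313342-20323517 R (10176 bases) all 6 probes were kept and had means of -0.23, 1.07 and -0.54. The embryo or RNA behind 1 channel of 1 pair and the array itself cannot be told apart in this design. With each array centred on its median in place of loess, 20 of 44 such names had pair 2 above, against 40 of 46.

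**Figure D5:**
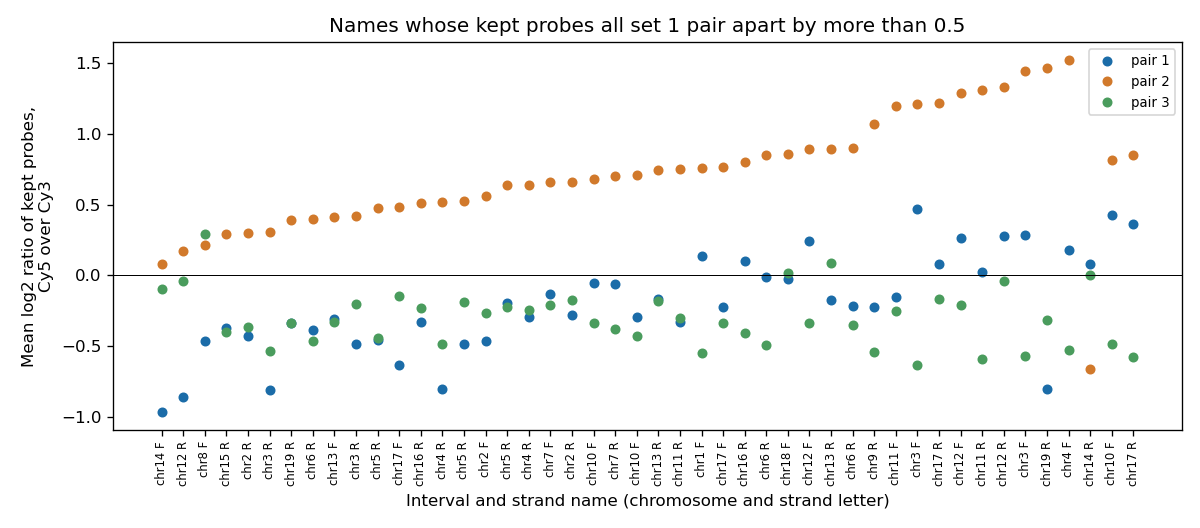
Mean log2 ratio of the kept probes (y axis) in pairs 1, 2 and 3 for the 46 interval and strand names (x axis) whose kept probes all set 1 pair apart by more than 0.5. In 40 names pair 2 lies above the other pairs, up to a mean of 1.52 on strand F of an interval on chromosome 4.

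The strands of an interval did not move together. In the 473 intervals with kept probes on both strands, the mean ratios of F and R had opposite signs in 218, and their correlation across intervals was 0.03, given as a description. The SD of the difference between the strands was 0.23. Detection aside, the ratios of F and R probes differed by 0.04, -0.02 and 0.04 in their medians, a mean of 0.02 ± 0.04 (SD; exact sign-flip permutation p = 0.5).

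Noncoding RNAs that carry a name give a comparison, although whether any of them overlaps an interval was not analysed here. Of a list of 50, 24 have a probe and 22 were kept. None passed the limma threshold in either direction, 5 had an unadjusted p under 0.05, all lower in Cy5, and the median was -0.09 with 7 above 0. Of all kept probes 0.813% passed and 16.2% had an unadjusted p under 0.05, with a median of -0.02, and nothing is read from the list's counts beside these. The 6 with the smallest p began with Pvt1, a host of microRNAs next to Myc, at -0.34 ± 0.08 (-0.28, -0.35 and -0.39 in the pairs; adjusted p = 0.199). Norad, which binds Pumilio proteins in the cytoplasm, had -0.32 ± 0.08 (adjusted p = 0.202), although another of its 4 kept probes had 0.46. Mir17hg, the precursor of the miR-17 cluster, had -0.34 ± 0.10 (adjusted p = 0.239). Snhg6, a host of small nucleolar RNAs, had -0.26 ± 0.09 (adjusted p = 0.282), and Tug1 had -0.29 ± 0.11 with its 3 probes between -0.34 and 0.24 (adjusted p = 0.30). Fendrr, an RNA of lateral mesoderm next to Foxf1, was the only one of the 6 above 0, at 0.26 ± 0.10 (adjusted p = 0.320; all errors SE, n = 3 pairs).

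The authors' deposited table lists 40000 probes, 11611 of them interval probes (29.0%), which are 74.4% of the interval probes on the array. Its log2 ratio runs the opposite way. Over the 4146 interval probes kept here its correlation with Cy5 over Cy3 was -0.92, and over the 7465 not kept -0.80. The smallest adjusted p of an interval probe in the authors' deposited table was 0.264. Of its 100 largest ratios over all probes, 35 were those of interval probes. Among the interval probes alone, the largest ratios are mostly those of dim probes. Of the 100 interval probes with the largest ratio in the authors' deposited table, 1.53 to 4.91 in size, 81 were not well above background on any array and 7 were kept here. The same 100 had a median size of 0.41 in the values computed here. The first of them, on strand R of chr9:40031056-40031687 (632 bases), stands at -4.91 in the authors' deposited table. Its spot signals were 75, 67 and 62 in Cy3 and 213, 196 and 218 in Cy5, and its ratios here were 0.67, 0.74 and 0.96.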

How the data were processed

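Median spot intensities of both channels came from 3 deposited scanner files, written by Agilent Feature Extraction 10.7.3.1, per the file headers. The flags for spots well above background, positive and significant, saturated or outlying are those of the deposited files. Total RNA (350 ng a sample, per the labels' protocols) went through 1 round of amplification before dye coupling. The submitters' processing notes name limma for the authors' table. That deposited table gives log2 ratios, p-values, and t and log-odds scores; its direction is not stated, and its log2 ratios are used only as the authors' values. The genome build of the interval names, mm9, comes from the file headers.

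Here, with R 4.3.3 and limma 3.58.1, background was corrected by normexp (offset 50) and ratios normalized by loess (span 0.3) within each array, with control and outlier spots at weight 0. Spots of a probe were averaged. Probes well above background in 1 same channel on at least 2 arrays (31603 of 55681) entered lmFit and eBayes with an intercept, with Benjamini-Hochberg adjustment over all of them and a threshold of 0.05. All 3 pairs form 1 group. The fit was tested on simulated data with independent noise for each probe and no intensity trend. That test does not bear on the calls of bright probes. Depth has no counterpart on arrays; the number of arrays limits the precision. Left out were 577 probes of intervals on chromosome X and 13 probes of 3 names without a strand letter. Alternatives were a span of 0.02, the scanner software's processed signals, median centring, no background correction, no filter, a filter on both channels, 1 probe or the mean per transcript, leaving out probes above an intensity of 17, and leaving out each pair.

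The intervals named are the 12 largest increases and decreases past the threshold with 1 sign in all pairs, filled to 6 each by unadjusted p; the 6 brightest; the 4 with the largest strand difference; the 3 longest and shortest kept; and 6 of a list of named noncoding RNAs by unadjusted p. One probe per interval and strand stands for it. For intervals past the threshold it is the brightest of the probes that passed, not always the brightest kept probe. Brighter probes of chr15:85412264-85549139 F, chr17:38132217-38157667 F and chr4:147105275-147171025 R did not pass. Intervals filled in by unadjusted p have the probe taken by that p, and the rest have the brightest probe. Other intervals are said to have been chosen after their values were seen. The members and lists were chosen with earlier results of these data known.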

Additional observations from a re-analysis of the deposited data

Results flagged for a closer look

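Signal also appeared in intervals outside the main set. Of the 13 probes whose interval name has no strand letter, 8 were well above background on all 3 arrays. Of the 577 interval probes on the X chromosome, 37.1% (214 probes) were well above background on all arrays, against 30.2% of the autosomal ones. No group of samples here has 4 or more members, so single samples were not tested as outliers.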

How the results depend on the processing

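The count of interval probes past the limma threshold, 8 with a span of 0.3, was 0 with a span of 0.02, 0 with the processed signals, 0 without probes above an intensity of 17 and 0 when any 1 pair was left out. In each of these settings 0 probes of the whole array passed. In them 861, 1112, 854 and, without a pair, 268 to 918 interval probes had an unadjusted p under 0.05 (15.6%, 20.1%, 15.4% and 4.84% to 16.6%, against 14.1%, 13.98%, 14.6% and 7.41% to 15.8% of all probes tested). The count was 19 with median centring (9 higher and 10 lower, against 5 and 3), where 692 of 31603 probes passed in all. Without the filter it was 20, where 392 of 55681 passed in all. With 1 probe per transcript it was 5, where 323 of 24188 passed in all. With the mean of the probes per transcript it was 4, where 200 of 24188 did. It was 8 without background correction (239 of 31603 in all) and 11 with the filter on both channels (294 of 26058 in all). The share of probes well above background, 36.6%, was 66.1% by the flag for positive and significant spots and 27.1% in both channels. The range between length classes, 10.1 points, became 7.59 by that flag and 4.18 over length classes of equal size, and the range between chromosomes, 12.1 points, became 10.3 by that flag and 10.9 in both channels. The range of chromosome medians, 0.08, was 0.14 with processed signals and 0.043 without the filter, and 0.0719 to 0.118 leaving out a pair. The difference of the ratio between the longest and shortest intervals, 0.06, was 0.115 with processed signals and 0.0127 without the filter. Names that set 1 pair apart, 46, numbered 81 with processed signals. The cause of these changes was not tested. No paired analysis was possible because there is 1 group: every ratio is already paired within its array, and no further block by pair number could be fitted. Medians of named genes by chromosome were not run. With 3 arrays of 1 dye orientation, dim intervals are limited by signal over background.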

Other observations

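The 3 interval names without a strand letter lie outside the main set and entered no comparison above. The 5 probes of chr17:12941161-12944859 were well above background on all arrays, with mean log2 ratios of -0.56, 0.13 and -0.45 in pairs 1, 2 and 3. The 3 probes of chr3:34856791-34869544 were so too, with 0.05, 0.22 and -0.49. None of the 5 probes of chr6:52032838-52033444 was well above background on all arrays.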
